A study of Bos indicus with 9 samples.

Results

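Muscle-only open regions are the muscle peaks on chromosomes 1 to 29 that overlapped no peak of hypothalamus or liver by even 1 bp. There were 10681 of them among the 28554 muscle peaks that start at 1 Mb or later on these chromosomes, and among 140923 peaks in the 3 lists. Chromatin was profiled by ATAC-seq, in which the Tn5 transposase cuts accessible DNA and the fragments between cuts are sequenced, in hypothalamus, muscle, and liver of the same 3 Brahman heifers (Bos indicus). The heifers were unrelated, past puberty, and similar in age and weight, and no treatment is named in the sources used here. Tissue was frozen after slaughter, and there were 3 libraries per tissue and 9 in all. The muscle that was sampled is not named in the sources used here. Peaks were called by the authors on the 3 heifers of a tissue together, so there is 1 consensus list per tissue, each peak has 1 value, and no value exists for a single heifer. The members were chosen by the peak calls themselves, so their number, length, and strength are given as a description, and no test between tissues was made.

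Muscle fibers are built of repeated contractile units, the sarcomeres, in which myosin thick filaments slide along actin thin filaments. Titin (TTN) is a giant protein that spans from the Z disc at the edge of the sarcomere to its center and acts as a spring, and desmin (DES) is the intermediate filament that ties neighboring Z discs together. Open chromatin marks promoters and enhancers, and enhancers in particular are known to be used by few cell types. Active, heavily transcribed genes can also be accessible along much of their body.

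The members made up 37.4% of the muscle peaks on these chromosomes (Wilson 95% interval 36.8 to 37.97, which covers counting error only, as do all intervals here). Of the remaining muscle peaks, 9011 overlapped a hypothalamus peak alone, 442 a liver peak alone, and 8420 both. The same rule left 51518 of 68177 hypothalamus peaks (75.6%, 75.2 to 75.9) and 632 of 10465 liver peaks (6.04%, 5.60 to 6.51) without a counterpart. The longer list of 1 tissue leaves fewer peaks of another tissue unmatched, so these shares depend on the number of peaks called in each list. When each list was cut to its 22291 strongest peaks by summit over all sequences, 14853 muscle peaks were left on these chromosomes. Of these, 5331 were muscle-only (35.9%, 35.1 to 36.7). The lists were still unequal on these chromosomes, where liver had 10465 peaks.

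The members were narrower and weaker than the muscle peaks shared with another tissue. Their median length was 403 bp (quartiles 300 and 564, range 102 to 7319), against 637 bp for the 17873 shared muscle peaks. The area under the curve (AUC), the signal of the peak caller summed over the peak, had a median of 461 (quartiles 293 and 825) against 942. The −log10 p at the summit, which combines the heifers, had a median of 4.55 (quartiles 3.92 and 5.61) against 5.76. A longer peak has more bases in which to meet a peak of another list, so length and class are not independent. The members covered 5.17 Mb, or 27.4% of the 18.8 Mb under all muscle peaks considered, and carried 21.5% of their summed AUC.

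The share of muscle-only peaks fell as the summit rose. It was 52.4% (51.1 to 53.7) for summits from 3 to 4 and 47.8% (46.7 to 48.9) from 4 to 5. It was 32.0% (30.4 to 33.5) from 6 to 7 and 13.0% (11.5 to 14.6) from 8 to 9. Among the 1430 muscle peaks with a summit of 10 or more, 19 were muscle-only (1.33%, 0.852 to 2.07). The highest summit of a member was 11.7, and 392 shared muscle peaks lay above it. By AUC, muscle-only peaks made up 54.9% of the lowest of 10 equal groups of muscle peaks and 6.02% of the highest.

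**Figure D1:**
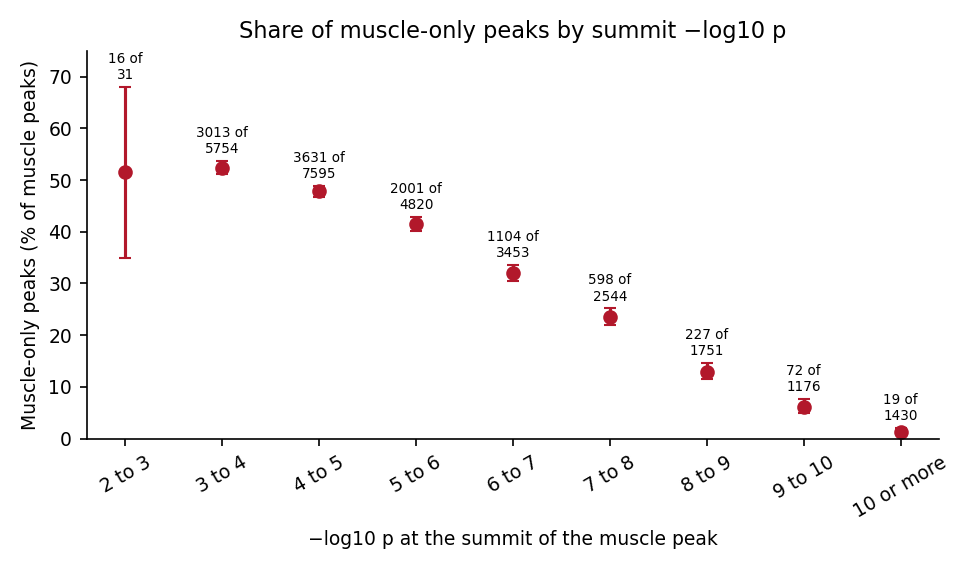
Each point is the percentage of muscle peaks that were muscle-only (y axis) among peaks in a class of −log10 p at the summit (x axis), with Wilson 95% intervals as bars and the counts above. The share goes from 52.4% in the class from 3 to 4 to 1.33% in the class of 10 or more.

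The nearest hypothalamus or liver peak was at a median of 7659 bp (quartiles 2541 and 21675, highest 1086841). It was within 1 kb for 1264 members (11.8%) and within 100 kb for 10286 (96.3%). Just inside the rule, a member at chr7:61027284-61028284 touched a peak of another tissue with 0 bp between them, and the next closest were 4 and 9 bp away. Just outside it, shared peaks at chr16:75547609-75548766 and chr7:51428962-51430108 overlapped by 1 bp. The summits of these 2 shared peaks were 6.31 and 7.65, and that of the touching member was 5.36.

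Every autosome held members, from 2.45 per Mb on chromosome 6 to 8.12 per Mb on chromosome 19. As a share of muscle peaks they ranged from 26.4% (24.2 to 28.8) on chromosome 18 to 47.8% (43.3 to 52.3) on chromosome 20. Chromosomes 14, 9, and 2 followed chromosome 20 at 46.5%, 46.4%, and 46.2%, with intervals that overlap its own. Across the 29 autosomes the density of members rose with that of shared muscle peaks (Spearman's rho 0.80) and with that of hypothalamus-only peaks (rho 0.89), but their share of muscle peaks ran against the density of shared peaks (rho −0.81). These are descriptions over chromosomes, whose counts all come from the same 3 lists. Chromosome 28, with 7.89 shared muscle peaks per Mb, had 45.4% (41.6 to 49.2) muscle-only. The intervals of chromosomes 16 (40.8%, 37.9 to 43.8) and 13 (39.2%, 36.3 to 42.1), at 7.85 and 7.98 per Mb, overlap its own. Those of chromosomes 21 (36.9%, 33.8 to 40.2) and 17 (36.6%, 33.6 to 39.8), at 7.82 and 7.96 per Mb, do not. All these intervals treat peaks as independent, but members cluster. A single locus held 46 of the 294 members of chromosome 28, and another held 109 of the 627 of chromosome 2. The shares without these loci were not computed, so the differences cannot be given to whole chromosomes.

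**Figure D2:**
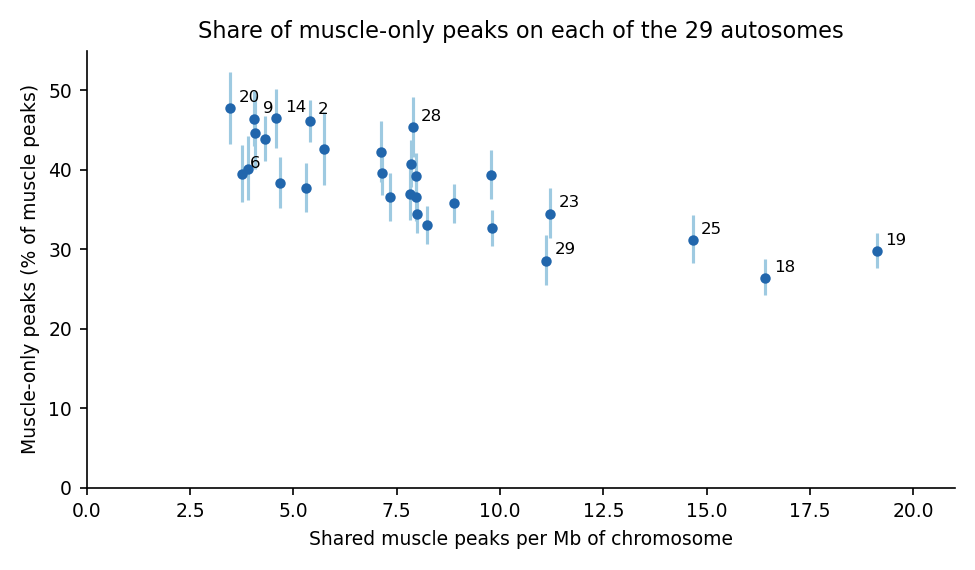
Each point is 1 autosome, with shared muscle peaks per Mb on the x axis and the percentage of its muscle peaks that were muscle-only on the y axis, with Wilson 95% intervals. The share runs from 47.8% on chromosome 20 to 26.4% on chromosome 18, and chromosomes 19, 18, and 25 have the most shared peaks per Mb.

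The members lay away from promoters. Genomic features were available here for chromosome 1 and for chromosome 2 up to 72.6 Mb, which hold 839 members and 930 shared muscle peaks. Of the members, 554 (66.0%, 62.8 to 69.2) were distal intergenic and 227 (27.1%, 24.2 to 30.2) intronic. Within 3 kb of a transcription start site (TSS) lay 40 members (4.77%, 3.52 to 6.43), against 435 of the shared peaks (46.8%, 43.6 to 50.0). The difference in the share near a TSS was −42.0 percentage points (Newcombe 95% interval −45.5 to −38.4). Members were more often distal by 27.3 points (22.8 to 31.7) and more often intronic by 14.6 points (10.9 to 18.3). The median distance to a TSS was 109 kb for members and 7.63 kb for shared peaks.

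Summits differed between the classes, so the share near a TSS is also given by summit. With a summit under 5, 26 of 554 members (4.69%) and 105 of 315 shared peaks (33.3%) were within 3 kb of a TSS, a difference of −28.6 points (−34.2 to −23.2). With a summit of 5 or more, it was 14 of 285 (4.91%) and 330 of 615 (53.7%), a difference of −48.7 points (−53.1 to −43.7). Within introns, 78 of 227 members (34.4%, 28.5 to 40.8) were in the first intron, against 56 of 116 shared peaks (48.3%, 39.4 to 57.3), which is −13.9 points (−24.7 to −2.96). Exons, 3′ UTRs, and the stretch downstream of genes together held few peaks of either class, and each of these differences had an interval that includes 0.

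**Figure D3:**
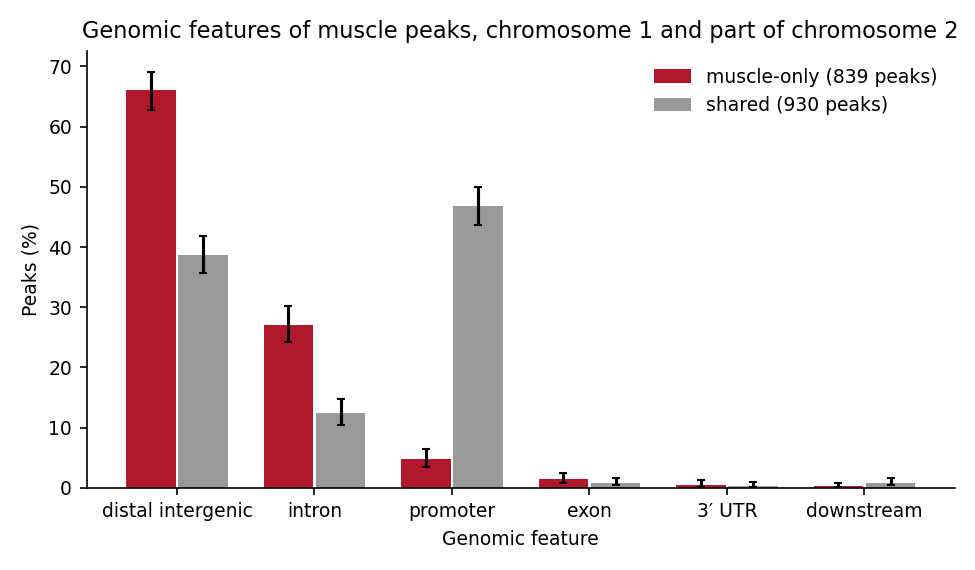
Bars give the percentage of muscle-only (839) and shared (930) muscle peaks in each genomic feature, on chromosome 1 and chromosome 2 up to 72.6 Mb, with Wilson 95% intervals. Promoters, within 3 kb of a TSS, hold 4.77% of the muscle-only and 46.8% of the shared peaks.

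Hypothalamus-only peaks had a similar share near a TSS. On chromosome 1 up to 97.0 Mb, where features of all 3 lists were available, 18 of 271 muscle-only peaks (6.64%, 4.24 to 10.3) and 95 of 1490 hypothalamus-only peaks (6.38%, 5.24 to 7.73) were within 3 kb of a TSS. The difference was 0.27 points (−2.49 to 4.05). Liver-only peaks numbered 11 there, of which 2 were near a TSS, too few to compare (difference −11.5 points, −41.2 to 2.00).

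Of the members in the annotated part, 11 covered a TSS. They include KLHL41, a kelch protein needed for sarcomere assembly (chr2:26750826-26751381, AUC 1192, summit 7.65). They also include CHRNA1, the alpha subunit of the muscle acetylcholine receptor (chr2:22084093-22084422, AUC 683, summit 5.59), and POPDC2, a cyclic AMP binding membrane protein of striated muscle (chr1:64415444-64415875, AUC 453, summit 4.78). SMCO1, MAP3K20, BCL6, B3GALNT1, MASP1, MME, TM4SF1, and the microRNA gene MIR6501 had the others, with summits from 3.59 to 5.43. KLHL41 had the highest AUC and the highest summit of the 11.

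Members stood alone about as often as shared peaks did, and the longest stretch by number of peaks was made of members. Joining members 12500 bp or less apart gave 6792 stretches, of which 4900 held a single peak (45.9% of members, against 47.8% of shared muscle peaks). Stretches of 10 peaks or more numbered 36 and held 640 members (5.99%, 5.56 to 6.46), against 5.22% (4.90 to 5.56) of shared muscle peaks and 9.56% (9.31 to 9.82) of hypothalamus-only peaks. The largest held 109 peaks and the next 46. The largest stretch of shared muscle peaks held 26, of hypothalamus-only peaks 39, and of liver-only peaks 11.

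The stretch of 109 peaks lay at chr2:18058897-18343004, over 284108 bp, of which 36.01% was covered by members. It lies between the genes CCDC141 and PLEKHA3. No gene annotation of this build was used beyond the genes nearest to peaks, so the gene between them was read from the order of RefSeq genes on another Bos indicus assembly (NIAB-ARS_B.indTharparkar_mat_pri_1.0). In that order TTN is the only protein-coding gene between the pair. The whole interval of 368 kb held 109 members and 3 shared muscle peaks, 5 hypothalamus peaks, and 0 liver peaks. Members were found there at 29.6 per 100 kb, against 0.328 per 100 kb over all 1334 intervals between neighboring genes of chromosomes 1 to 4. Those intervals leave out the bodies of the genes with a position, whereas the titin interval holds a gene body. Over all autosomes, gene bodies included, members were found at 4.35 per Mb.

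Most peaks of the titin stretch were weak, and its 2 largest by AUC were among the 10 members with the largest AUC. AUC is summed over the peak, and no peak of the stretch had 1 of the 5 highest summits. Their median AUC was 353 (range 203 to 11971) and their median summit 3.89 (2.87 to 8.45). A summit of 5 or more was reached by 12 of the 109 (11.0%), against 37.6% of all members. They were long for members, with a median of 639 bp, and 9 of 109 (8.26%) were 2 kb or longer against 57 of 10681 (0.534%) overall. The gaps between them had a median of 768 bp (101 to 12092), and 61 of 108 were 1 kb or less. Signal was unevenly spread. When the stretch was cut into 4 parts of equal length, the part on the CCDC141 side held 35.99% of its summed AUC and the one on the PLEKHA3 side 47.8%, against 9.27% and 6.98% for the parts between them. The largest peaks were chr2:18337070-18343004 (5935 bp, AUC 11971, summit 7.28) at the PLEKHA3 end and chr2:18117794-18124760 (6967 bp, AUC 7692, summit 5.59).

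**Figure D4:**
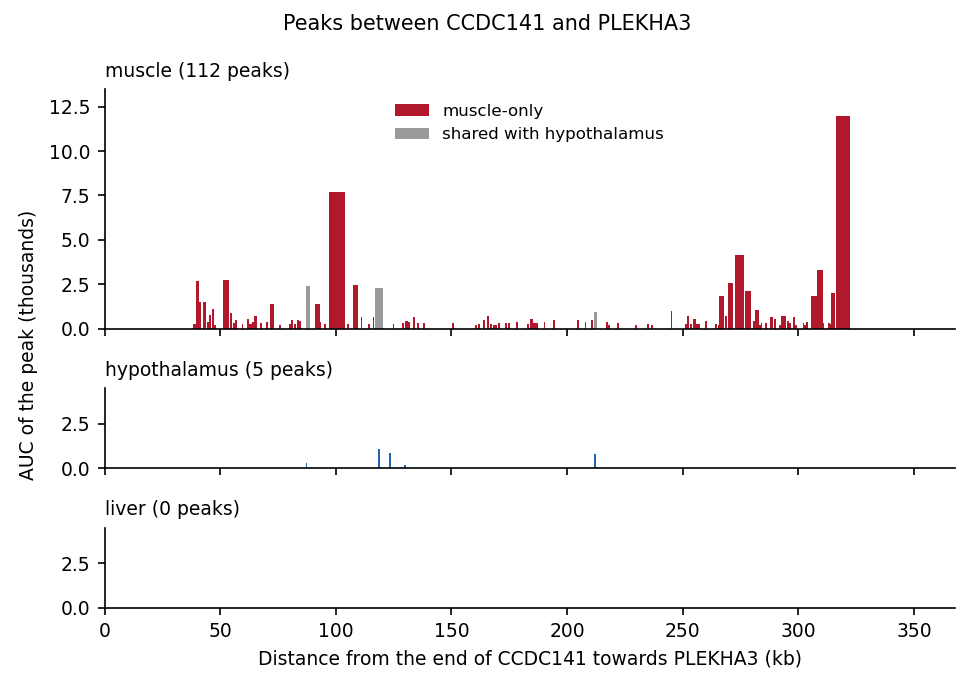
Peaks of muscle, hypothalamus, and liver between CCDC141 and PLEKHA3, with the distance from CCDC141 in kb on the x axis and the AUC of each peak, divided by 1000, as bar height, at the same scale in each panel. AUC was not scaled between tissues, and peaks under 0.8 kb are drawn at that width. Muscle has 112 peaks, of which 109 are muscle-only, with the highest AUC of 11971 at the PLEKHA3 end of the stretch, against 5 in hypothalamus and 0 in liver.

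CCDC141, the gene beside titin, itself held 10 members and 0 shared muscle peaks in its body plus 10 kb on each side.

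The other long stretches could be placed only roughly. The second longest, at chr28:9324218-9414229, held 46 members over 90012 bp (41.9% covered) with 0 shared muscle peaks. It falls in a wide interval from COA6 to CABCOCO1 with 46 protein-coding genes, of which the listed ones are ACTN2, the alpha-actinin that anchors thin filaments at the Z disc, and ANK3, an ankyrin, and it cannot be assigned to a gene here. The fourth, at chr25:25919948-25951255, held 22 members, covered 55.7% of its 31308 bp, and lies between GTF3C1 and CTF1 with 72 genes that include ATP2A1, the calcium pump of fast fibers, and ALDOA, the muscle aldolase. The fifth, at chr16:79691406-79756521, held 21 members with no peak of another tissue inside it and starts with a member of AUC 8483. Its interval up to TNNT2 has 129 genes. The listed genes among them are CACNA1S, the voltage sensor of the muscle calcium channel, PROX1, a homeobox factor, and PTPRC, the immune marker CD45, and the stretch cannot be assigned to any of them. The stretch of 21 peaks at chr23:7842007-7889654 had the same number and a smaller summed AUC.

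A stretch of 17 members over chr2:107330376-107371638 covered DES and the start of SPEG, a kinase related to the myosin light chain kinases that binds at the triad. The DES gene, 7.08 kb long, had 10 members in its body plus 10 kb, with 1 shared muscle peak, 1 hypothalamus peak, and 0 liver peaks. The gene body itself was met by 3 of the 10. Their summits ranged from 3.18 to 9.99 and their AUC from 254 to 4891. The 2 largest were neighbors, at chr2:107360274-107362782 (AUC 4891, summit 9.99) and chr2:107363531-107366999 (AUC 4323, summit 6.0), between DES and SPEG and into the latter. The interval between DNPEP and DES, with no protein-coding gene in it, had 9 members in 31.8 kb, or 28.3 per 100 kb, close to the density at titin.

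The 10 members with the largest AUC had AUC from 4965 to 12363 and summits from 5.59 to 11.7. The largest was chr29:49534178-49541496, 7319 bp long and also the longest member, with an AUC of 12363 and a summit of 9.51. It lies between CD81 and PNPLA2, an interval of 29 protein-coding genes that includes IGF2, an insulin-like growth factor, and the fast troponins TNNT3 and TNNI2, which switch contraction on calcium. That interval held 32 members beside 52 shared muscle peaks, and the median AUC of its members was 459. The titin stretch supplied 2 of the 10, and those on chromosomes 16 and 18 are described beside their stretch and summit. The others were chr21:22478174-22481618 (AUC 7266), chr10:19140233-19142312 (AUC 5263), chr13:54772274-54774795 (AUC 5109), chr10:73245318-73247421 (AUC 5004), and chr26:13172803-13174982 (AUC 4965), with summits from 7.75 to 9.92. They lie in wide intervals of 72 to 355 coding genes, and their nearest genes were not determined. The member with the highest summit, 11.7, was chr18:14044685-14047556 with an AUC of 7926. The next by summit were chr16:29940511-29941789 at 11.6, chr3:66620434-66621587 at 10.7, chr17:18592287-18593156 at 10.6, and chr13:24357084-24358150 at 10.6. The peak on chromosome 3 was in no stretch with other members and was 44408 bp from any peak of another tissue. It lies in the interval from ADGRL2 to DNAJB4, in which the gene order has 6 coding genes without a position here, so its nearest gene was not determined. The nearest genes of the other 4 were not analyzed here.

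Among genes of muscle function with a known position on this build, most had members. The gene lists covered contraction, calcium handling, the sarcolemma, transcription factors, growth, and metabolism, and 13 of their genes had a position on chromosomes 1 to 4. Of these 13, 10 had a member in the gene body plus 10 kb (76.9%). Of all 1495 genes with a position on these chromosomes, which are those nearest to a peak of some list, 24.4% had one. The median number of members was 3 for the 13 genes and 0 for all genes. Of 3 genes that mark other cell types, ERG of endothelium had 2 members, with summits of 3.81 and 4.42, and OLIG1 of oligodendrocytes and AHSG of hepatocytes had 0. These are counts without a test, over few genes that were chosen with results of these data known.

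Glycogen and glucose metabolism had members at all 3 of its positioned genes. GYG1, the glycogenin that primes glycogen chains, held 7 members in its body over chr1:119158941-119176986, against 2 shared muscle peaks and 1 hypothalamus peak. The strongest of the 7 had an AUC of 2563 and a summit of 7.89 and lay in intron 5. PRKAG3, the muscle regulatory subunit of AMP-activated kinase known for its effect on muscle glycogen in pigs, had 5 members and 0 shared peaks, with summits from 4.06 to 5.63. PGM1, which interconverts glucose phosphates, had 2 members with summits of 7.02 and 8.12. In the list of oxygen and fat use, PDK4, a kinase that inhibits pyruvate dehydrogenase, had 4 members beside 5 shared peaks, and its strongest member had a summit of 8.30. ACADM, of fatty acid oxidation, had 0 members and 1 shared peak.

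Regulators of growth and atrophy differed among themselves. FBXO40, a muscle ubiquitin ligase subunit, had 6 members, all upstream of the gene at chr1:66091937-66100163, and neither shared muscle peaks nor peaks of hypothalamus or liver within 10 kb. The highest summit of the 6 was 6.96, at an AUC of 1049, and the closest to the TSS was at −2388 bp. TRIM63, the muscle ubiquitin ligase MuRF1, is alone between PDIK1L and SLC30A2 in the gene order, and that interval of 68.7 kb held 7 members and 1 shared peak. FNDC5, of the same list, lies in an interval of 3 coding genes between RNF19B and S100PBP. That interval of 73.9 kb held 0 members and 0 shared peaks. KLHL41 had its 1 member at the TSS. MSTN, the myostatin gene that limits muscle mass, had neither members nor shared peaks in its body plus 10 kb and 1 member within 50 kb.

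Among transcription factors and their partners the number of shared peaks varied. MEF2D, of the myocyte enhancer factor 2 family that drives muscle genes together with MYOD1, had 9 members and 9 shared peaks in its body plus 10 kb, and its members had summits from 3.38 to 6.20. The interval holding only HDAC4, a repressor of MEF2 factors, had 8 members and 8 shared peaks. TBX15, which is known for a role in fast fibers, lies between WARS2 and GDAP2 with 2 other genes, an interval of 1196 kb with 27 members and 2 shared peaks. Those members had a median AUC of 763 and a median summit of 5.49, above the medians of all members. PAX7, the marker of satellite cells, lies in an interval of 5 genes over 1195 kb with 6 members and 0 shared peaks. That is 0.502 members per 100 kb, against 0.328 over all intervals between neighboring genes of chromosomes 1 to 4. PAX3, also a satellite cell marker, lies in an interval of 3183 kb with 4 members and 2 shared peaks, or 0.126 members per 100 kb. MYF5 and MYOD1, the other markers of these cells, lie in intervals of 73 and 156 genes. In the thick filament list, MYOM3, an M band protein alone in its interval, had 6 members and 6 shared peaks.

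In intervals of chromosomes 1 to 4 that hold 1 coding gene, 104 of 316 (32.9%) had a member. The 4 that hold a gene of the muscle lists, with TTN, TRIM63, HDAC4, and MYOM3, had 109, 7, 8, and 6 members, and the 95th percentile over the 316 intervals was 4.25. Their median length was 256 kb against 123 kb over the 316, and a longer interval has room for more peaks. The 3 with genes of other cell types had 1 member at LEP and 1 at COL6A1, of adipocytes and connective tissue, and 0 at ADIPOQ of adipocytes.

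Other thin filament and membrane genes gave smaller counts. TPM3, the slow tropomyosin, had 3 members and 1 shared peak, with summits from 3.64 to 4.74. LMOD2, which lengthens thin filaments, lies with 1 other gene in an interval of 104 kb with 7 members and 1 shared peak. CHRNA1 had 1 member, the one at its TSS, and 0 shared peaks in its body plus 10 kb, where hypothalamus had 2 peaks of its own. BIN1, which shapes the T tubules, had 0 members but 18 shared muscle peaks, and hypothalamus had 22 peaks there. CAPN1 and PYGM, calpain 1 and the muscle glycogen phosphorylase, lie together in an interval of 45 genes between PLCB3 and FRMD8 with 9 members and 45 shared peaks. The myosin heavy chain genes MYH1, MYH2, and MYH4 could not be placed on this build and were not analyzed here.

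**Figure D5:**
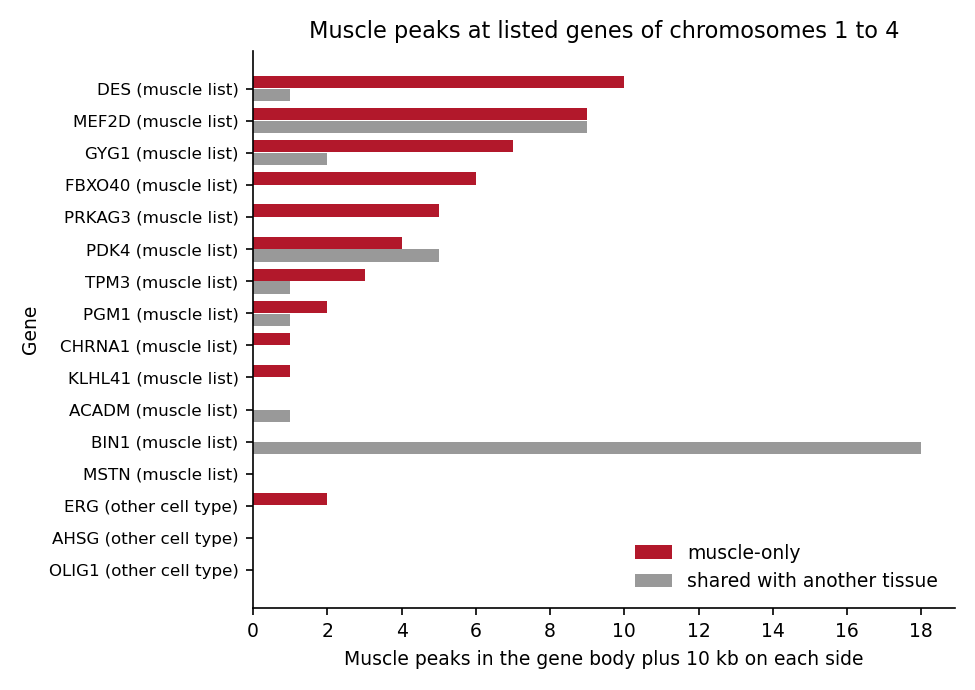
Bars give the number of muscle-only and shared muscle peaks in the gene body plus 10 kb on each side (x axis) for the 16 listed genes with a position on chromosomes 1 to 4. DES has 10 muscle-only peaks and 1 shared, MEF2D 9 of each, and BIN1 0 muscle-only and 18 shared.

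The genes with the most members in the body plus 10 kb were mostly long. CMSS1 and LPP had 17 each, FGGY 13, and PLCL2 11, followed by DES, LRRFIP1, and CCDC141 with 10. CMSS1 is 395 kb long, and in the gene order FILIP1L lies across it, so its 17 members cannot be given to one or the other. LPP, a focal adhesion protein of the zyxin family abundant in smooth muscle, had 17 members and 0 shared muscle peaks over 684 kb, beside 13 hypothalamus peaks. The interval after it up to BCL6, with no coding gene, held 19 more members and 9 shared peaks. FGGY, a carbohydrate kinase, had 20 hypothalamus peaks beside its 13 members. DES stood apart from the others on this list by its length of 7.08 kb.

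Dense intervals also included loci outside the muscle lists. The interval from ITGB2 to POFUT2 on chromosome 1, which holds SLX9 and the RNA editing enzyme ADARB1, had 29 members and 5 shared muscle peaks, and its members reached a summit of 10.2 and an AUC of 4376. The interval from IGFBP5 to ARPC2 on chromosome 2, with TNS1 and 4 other coding genes, had 43 members and 9 shared peaks with summits up to 10.5. The interval from HIBADH to SKAP2 on chromosome 4, which holds the HOXA cluster that sets position along the body, had 15 members and 4 shared peaks with a median summit of 4.28.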

How the data were processed

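ATAC-seq peaks were taken from the authors' consensus lists for hypothalamus, muscle, and liver. Reads were mapped by the authors with HISAT2 on the ARS-UCD1.2 genome, with at most 10 placements of a read kept. Peak calling by the authors used Genrich 0.6.1 (p threshold 0.01), which removed PCR duplicates, left out the mitochondrial chromosome, and combined the 3 heifers by Fisher's method. The deposited signal is the AUC of −log10 p over the peak, and the deposited summit −log10 p is not corrected for multiple tests. The deposited score and summit position were not used for results. Neither value is scaled between tissues, and read depth is not in the lists.

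Members were selected with python 3.11.15, numpy 2.4.6, and pandas 2.3.3, checked with bedtools 2.31.1, and the code was tested on simulated intervals. Starts were printed counted from 1. Shares have Wilson and differences Newcombe 95% intervals (scipy 1.17.1, statsmodels 0.14.6). Plots used matplotlib 3.10.9. The members and gene lists were chosen with earlier results of these data known. No genome of this build was used, so motifs were not searched and no sequence is printed. Features and gene positions (1970 genes, 1495 on chromosomes 1 to 4) came from RefSeq models in the authors' ChIPseeker annotation, and 1728 genes were ordered on the assembly NIAB-ARS_B.indTharparkar_mat_pri_1.0. The plan to use all protein-coding autosomal genes was thereby limited to these.

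Named were the 10 members with the largest AUC and the 5 with the highest summit, the 5 longest stretches (1 of them is not reported here), the listed genes with the most members, TTN, CHRNA1, MSTN, IGF2, CAPN1, PYGM, and the myosin heavy chains, and the 5 genes with the most members. The other genes and intervals were named after their values were seen.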

Additional observations from a re-analysis of the deposited data

How the results depend on the processing

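No replicate could be left out, since each peak has 1 value for the 3 heifers together. No paired analysis was possible because values of single heifers are not in the lists. The alternatives on motifs could not be run without a genome of this build. The number of muscle-only peaks was 4021 with muscle summits of at least 5 and 4734 with summits of at least 5 in all lists. It was 5331 with the same number of peaks per list, counted over all sequences. It stayed within 1.5 times of 10681 with peaks of another tissue up to 1 kb away taken as overlapping (9418), when 50% of the muscle peak had to be covered (11357), and with no limit on the start (10798). The share of members near a TSS was 2.62% with 1 kb as the distance, and other alternatives left it between 3.99% and 5.48%. The alternatives on stretches were chosen after seeing the data. The share of members in stretches of 10 or more was 2.71% with 5 kb and 9.66% with 25 kb as the joining distance. The largest stretch at titin held 38 peaks with 5 kb as the joining distance, 4 with summits of at least 5, and 69 with other-tissue peaks up to 1 kb away taken as overlapping. In the last case the members between 116.681 and 131.286 kb from CCDC141 were dropped. The gap they left was wider than the joining distance of 12500 bp, so the stretch split. The 69 peaks are its largest part and not all the members kept there. Of the 13 muscle list genes, 9 (69.2%) had a member in the gene body alone and 11 (84.6%) within 50 kb, against 10 (76.9%) within 10 kb. Over all 1495 genes with a position the share was 17.3% in the gene body alone, 40.7% within 50 kb, and 24.4% within 10 kb.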

Other observations

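Outside the rule, muscle peaks with no counterpart were rarer. On the X chromosome, 178 of 985 muscle peaks (18.1%) overlapped no peak of hypothalamus or liver, and in the first 1 Mb of the autosomes 117 of 944 (12.4%) did not.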
